A study of Mus musculus with 8 samples.

Results

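The muscle atrophy ligases and the FoxO factors above them were described here across C2C12 myotubes that received adenovirus for PGC-1α, deferoxamine (DFO), or both. The members were named by gene symbol: the ubiquitin ligases Trim63, Fbxo32, Fbxo30, Fbxo40, Trim32 and Cblb, and the transcription factors Foxo1 and Foxo3. Of these 8 genes, 7 had a probe set of their own, with 19 probe sets in all, out of 18193 genes and 45101 probe sets on the array. The expression of Fbxo40 was not analysed here, and 1 probe set shared by Foxo3 and Gm38485 was left out.

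C2C12 is an established clonal mouse myoblast line that fuses into multinucleated myotubes when serum is lowered. The cells were differentiated for 3 days in medium with 2% dialyzed serum, infected, and harvested 3 days later. The 4 groups of 2 arrays were GFP-PGC-1α with 100 µM DFO (GFP-PGC-1α+DFO), GFP with 100 µM DFO (GFP+DFO), GFP-PGC-1α without DFO, and GFP without DFO. Every culture carried an adenovirus and GFP, PGC-1α was a GFP-tagged overexpressed protein, and uninfected cells were not analysed here. DFO is an iron chelator, and PGC-1α is a coactivator of transcription that drives genes of mitochondrial energy metabolism. The submitters name the arrays within a group biological duplicates and do not say whether they came from separate differentiations, so p-values measure the spread between these arrays. An exact permutation test of 2 arrays against 2 cannot go below a two-sided p of 0.333, so the tests below are those of limma, fitted across all genes and adjusted by Benjamini and Hochberg's method with a threshold of 0.05.

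Skeletal muscle that wastes breaks down protein largely through the ubiquitin-proteasome system. A ubiquitin ligase chooses the protein to be marked, and the proteasome degrades what is marked. Trim63 (MuRF1) and Fbxo32 (atrogin-1) are the ligases most often used as markers of muscle atrophy, and FoxO factors switch on both genes when insulin and Akt signalling is low. In muscle, PGC-1α is known from mouse work to oppose FoxO3-driven wasting.

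The promoters of 3 members are shown because, of the 7 measured members, Trim63 gave the largest fall and Foxo1 and Foxo3 rose with DFO in both GFP-PGC-1α and GFP cultures. Each line is the 250 bases before the RefSeq transcript start in GRCm38.p6, 5′ to 3′ on the strand of the gene. Capitals mark matches, on either strand, to a FoxO element (GTAAACA), an E-box of the kind bound by myogenic factors (CAGCTG), or the core of a hypoxia response element (ACGTG or GCGTG). Trim63 lies on chromosome 4, with its window at chr4:134314870-134315119 on the plus strand, Foxo1 on chromosome 3, with chr3:52268087-52268336 on the plus strand, and Foxo3 on chromosome 10, with chr10:42276696-42276945 on the minus strand.
Trim63: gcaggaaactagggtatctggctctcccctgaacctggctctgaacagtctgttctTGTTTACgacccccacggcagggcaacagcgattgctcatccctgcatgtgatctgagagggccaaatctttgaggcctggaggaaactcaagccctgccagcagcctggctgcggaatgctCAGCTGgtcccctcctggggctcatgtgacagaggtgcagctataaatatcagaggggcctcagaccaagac
Foxo1: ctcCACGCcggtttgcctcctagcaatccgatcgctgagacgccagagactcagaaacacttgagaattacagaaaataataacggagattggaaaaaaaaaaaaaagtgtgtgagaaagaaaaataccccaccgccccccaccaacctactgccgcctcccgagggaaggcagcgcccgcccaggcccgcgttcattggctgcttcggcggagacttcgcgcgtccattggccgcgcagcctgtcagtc
Foxo3: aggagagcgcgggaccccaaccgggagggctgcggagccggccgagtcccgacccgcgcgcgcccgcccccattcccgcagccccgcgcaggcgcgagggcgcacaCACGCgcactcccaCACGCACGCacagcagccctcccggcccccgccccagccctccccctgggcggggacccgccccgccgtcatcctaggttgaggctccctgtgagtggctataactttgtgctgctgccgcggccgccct
The Trim63 window held 1 FoxO element, starting at position -194 from the transcript start, 1 E-box at position -72, and no hypoxia core. The Foxo1 window held 1 hypoxia core, at position -247, and the Foxo3 window held 3, at positions -144, -130 and -126. Windows were read for 7 of the 8 listed members, with Fbxo40 among them and Fbxo32 not. Of these 7, Trim63 alone had the FoxO element, which 3.17% of all 32851 promoter windows of this length held. The E-box was in 13.0% of windows and the hypoxia core in 38.6%. Fbxo30 and Cblb had 1 hypoxia core each, Trim32 had 1 E-box, and the 2 windows of Fbxo40 had 1 and 2 E-boxes. These matches describe letters in a window and are no evidence of binding.

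Array medians lay between 59.45 and 62.82 intensity units and replicates had a Pearson r of 0.942 to 0.962 over probe sets. The construct was read in the labelled groups: Ppargc1a, the gene of PGC-1α, was higher by a log2 change of 7.34 ± 0.55 with DFO (adjusted p = 0.00174) and 7.77 ± 0.55 without it (adjusted p = 0.00315). Myogenin (Myog), a factor that drives myotube formation, had mean intensities of 67.1 in GFP-PGC-1α+DFO, 157 in GFP+DFO, 5270 in GFP-PGC-1α and 5277 in GFP cultures. The summed intensity of 8 myotube markers was 13520 to 14550 in GFP-PGC-1α+DFO, 19220 to 19700 in GFP+DFO, 39600 to 39880 in GFP-PGC-1α and 45950 to 49060 in GFP arrays. The control probe sets for beta-actin, whose 5′ over 3′ signal drops as RNA shortens, gave ratios of 0.753 and 0.811 in GFP-PGC-1α+DFO, 0.868 and 0.859 in GFP+DFO, and 0.897 to 0.921 on the 4 arrays without DFO. Whether these 2 measures have a part in the results with DFO was not tested, and in bulk RNA fewer myotubes and less RNA per myotube cannot be told apart. Scaling the arrays to 27 poly-A spike-in probe sets moved the median log2 change of all genes to 0.45 for GFP-PGC-1α+DFO against GFP+DFO, 0.56 for GFP-PGC-1α+DFO against GFP, 0.36 for GFP-PGC-1α+DFO against GFP-PGC-1α and 0.13 for GFP-PGC-1α against GFP. As deposited the median was -0.05 for GFP-PGC-1α+DFO against GFP+DFO, -0.0097 for GFP-PGC-1α+DFO against GFP, 0.01 for GFP-PGC-1α+DFO against GFP-PGC-1α and -0.08 for GFP-PGC-1α against GFP. A change below is therefore one relative to the deposited scaling, and the member values that turn are named in the text. Of the called results in the gene lists below, 8 turned under poly-A spike-in scaling for GFP-PGC-1α+DFO against GFP+DFO, 4 for GFP-PGC-1α+DFO against GFP-PGC-1α, 0 for GFP-PGC-1α against GFP and 0 for GFP+DFO against GFP.

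Trim63, which encodes a ligase of myosin heavy chain and other thick-filament proteins, was lower with PGC-1α and lower with DFO, and lowest with both. Its only probe set was 1438704_at. Its intensity was 61.4 and 41.5 in GFP-PGC-1α+DFO, 402 and 364 in GFP+DFO, 635 and 639.8 in GFP-PGC-1α, and 1732 and 1661 in GFP cultures. The GFP-PGC-1α+DFO readings were dim, below the medians of those arrays (62.35 and 61.5), and the falls to that group rest on them. No arrays of any 2 groups overlapped. With PGC-1α and no DFO the level fell 2.66-fold (log2 change -1.41 ± 0.19 SE, adjusted p = 0.0159 by limma over 18193 genes, n = 2 arrays a group). With PGC-1α under DFO it fell 7.57-fold against GFP+DFO (log2 change -2.92 ± 0.19, adjusted p = 0.00136). DFO lowered it 4.44-fold with GFP (log2 change -2.15 ± 0.19, adjusted p = 0.00168) and 12.6-fold with GFP-PGC-1α (log2 change -3.66 ± 0.19, adjusted p = 0.000316).

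**Figure D1:**
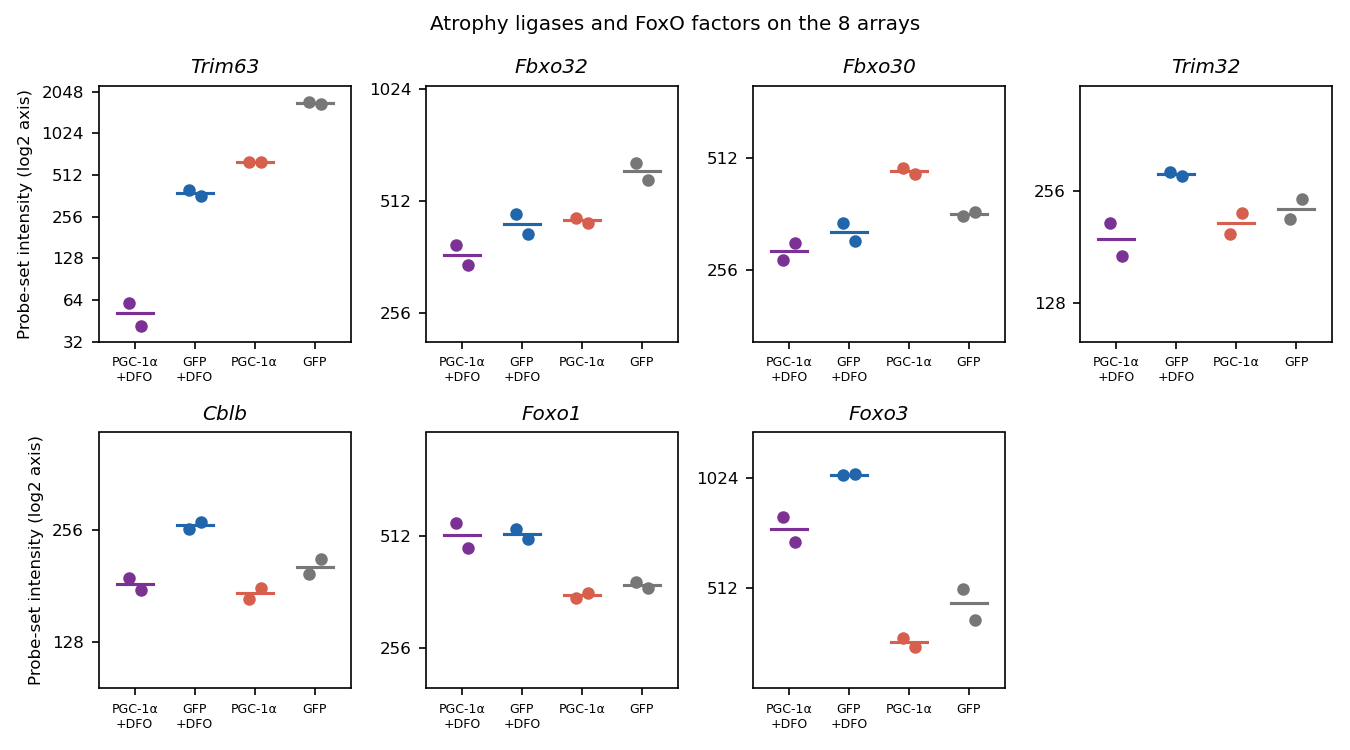
Intensity of the brightest probe set of each of 7 members on the 8 arrays, on log2 axes of different ranges. Points are arrays and bars are group means of the intensity. Trim63 separates all 4 groups, and the DFO groups are higher than the groups without DFO for Foxo1 and Foxo3.

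The effect of both agents together on Trim63 was larger than the product of each alone, but the test of that difference did not pass. GFP-PGC-1α+DFO cultures were 33.6-fold lower than GFP cultures (log2 change -5.07 ± 0.19, adjusted p = 9.34e-05), while the single changes multiply to 11.8-fold. The interaction was -1.51 ± 0.27 on the log2 scale (95% interval -2.20 to -0.82), with an unadjusted p of 0.00225 and an adjusted p of 0.0919 by limma. The call without DFO was the less firm one: without GFP replicate 1 its adjusted p was 0.0891, without GFP replicate 2 0.0689, without GFP-PGC-1α replicate 1 0.0947 and without GFP-PGC-1α replicate 2 0.0773. It was 0.053 without either GFP+DFO replicate and 0.0667 when only those 2 groups were fitted, while the log2 change stayed between -1.44 and -1.20 over all alternatives. The other calls of Trim63 passed under each of 20 alternatives.

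Fbxo32, which encodes the substrate-binding F-box subunit of an SCF ligase that acts on MyoD and eIF3f, was also lower with DFO, by much less. Its brightest probe set read 389.9 and 346 in GFP-PGC-1α+DFO, 472 and 417 in GFP+DFO, 463 and 448 in GFP-PGC-1α, and 646 and 583 in GFP cultures. GFP arrays were the highest and GFP-PGC-1α+DFO arrays the lowest, and the groups with 1 agent overlapped each other. The fall with DFO passed against GFP (log2 change -0.47 ± 0.12, adjusted p = 0.0391), as did that with both agents (log2 change -0.74 ± 0.12, adjusted p = 0.00668). The call with DFO against GFP ended under 10 of 20 alternatives, among them the mean of probe sets (adjusted p = 0.128) and the omission of any 1 GFP+DFO, GFP-PGC-1α or GFP array (adjusted p = 0.074 to 0.19). Under poly-A spike-in scaling the adjusted p was 0.0808 with DFO against GFP and 0.289 with both agents. The change with PGC-1α was -0.27 ± 0.12 on the log2 scale with DFO (adjusted p = 0.179), or 0.23 under that scaling, and -0.43 ± 0.12 without DFO (adjusted p = 0.0819).

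The 3 probe sets of Fbxo32 did not give the same picture. Probe set 1435265_at read 206 and 109 in GFP-PGC-1α+DFO, 356 and 316 in GFP+DFO, 554 and 491 in GFP-PGC-1α, and 664 and 732 in GFP cultures. Its groups did not overlap, and in a fit of every probe set it fell by 2.22 ± 0.31 on the log2 scale with both agents against GFP (adjusted p = 0.006). DFO lowered it in GFP-PGC-1α cultures (log2 change -1.80 ± 0.31, adjusted p = 0.0152), where the brightest probe set changed by -0.31 ± 0.12 (adjusted p = 0.151). Probe set 1417522_at passed in none of the 6 contrasts, with intensities of 142 to 158 in GFP-PGC-1α+DFO and 149 to 219 in GFP cultures. In GFP+DFO cultures it read 192 and 203, within the range of its GFP readings, so it showed no fall with DFO alone. The size of the Fbxo32 change with both agents therefore ran from -0.27 ± 0.21 to -2.22 ± 0.31 with the probe set read.

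**Figure D2:**
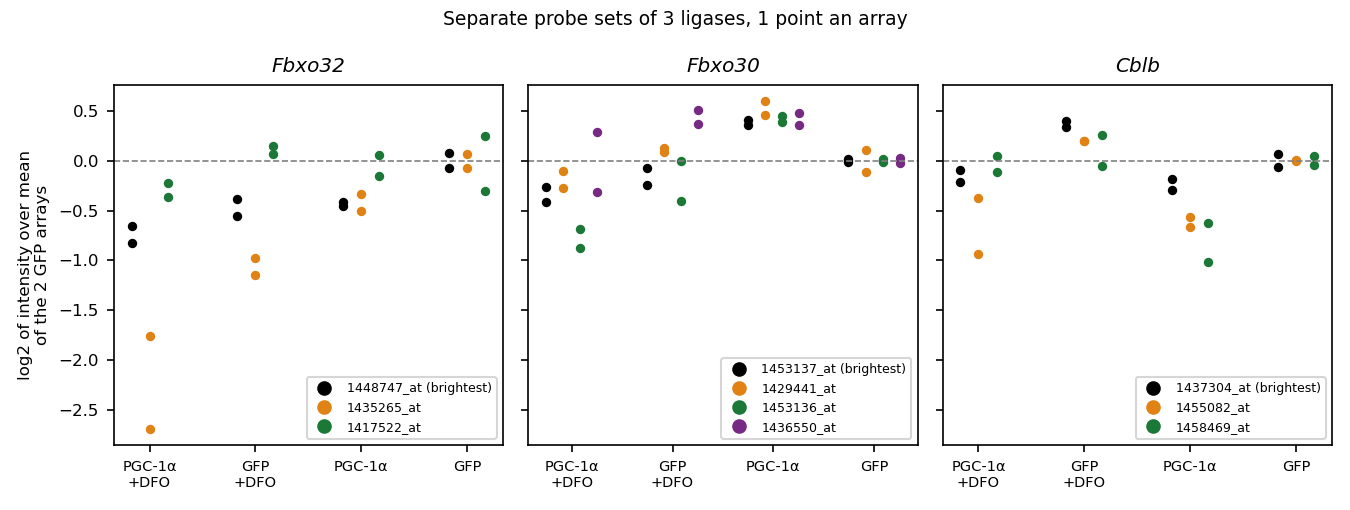
Each probe set of Fbxo32, Fbxo30 and Cblb as log2 of its intensity over the mean of the 2 GFP arrays, 1 point an array, by group. The 3 Fbxo32 probe sets spread apart in the DFO groups, and all 4 Fbxo30 probe sets stand above 0 in the GFP-PGC-1α group.

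Fbxo30, which encodes another F-box protein (MUSA1) known from mouse muscle as a target that BMP signalling holds down, was the one measured ligase among the members whose GFP-PGC-1α arrays both read above its GFP arrays, a difference that did not pass. Its intensity was 272 and 302 in GFP-PGC-1α+DFO, 343 and 306 in GFP+DFO, 481 and 464 in GFP-PGC-1α, and 358 and 366 in GFP cultures. GFP-PGC-1α arrays stood above all others and GFP-PGC-1α+DFO arrays below all others. DFO lowered it 1.65-fold in GFP-PGC-1α cultures (log2 change -0.72 ± 0.10, adjusted p = 0.00631), against -0.16 ± 0.10 in GFP cultures (adjusted p = 0.334). The fall in GFP-PGC-1α cultures had an adjusted p of 0.132 under poly-A spike-in scaling. PGC-1α without DFO gave 0.38 ± 0.10 (adjusted p = 0.08), and the interaction was -0.56 ± 0.14 with an unadjusted p of 0.0103 and an adjusted p of 0.157. All 4 probe sets of Fbxo30 lay higher in GFP-PGC-1α than in GFP arrays and, as deposited, lower in GFP-PGC-1α+DFO than in GFP+DFO arrays, with no overlap. They read the same RNA on the same arrays, so they are not separate pieces of evidence. The share of all probe sets that separate in this way was not taken. Under poly-A spike-in scaling the brightest probe set gave 0.33 for PGC-1α under DFO in place of -0.18 ± 0.10. In the fit of every probe set neither of these comparisons passed for any of the 4, while the fall with DFO in GFP-PGC-1α cultures passed for 3 of them.

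Trim32 and Cblb were highest with DFO alone and lower when PGC-1α was added to DFO. Trim32, whose product marks thin-filament proteins and dysbindin, read 209 and 171 in GFP-PGC-1α+DFO, 288 and 281 in GFP+DFO, 195 and 223 in GFP-PGC-1α, and 215 and 243 in GFP cultures. GFP+DFO arrays were above the other 6. Among these, GFP-PGC-1α arrays overlapped both GFP and GFP-PGC-1α+DFO arrays. GFP-PGC-1α+DFO arrays lay below GFP arrays, a difference that did not pass (log2 change -0.27 ± 0.14, adjusted p = 0.216). PGC-1α under DFO gave a log2 change of -0.59 ± 0.14 (adjusted p = 0.0443), which was -0.08 under poly-A spike-in scaling (adjusted p = 0.758) and -0.47 after quantile normalization (adjusted p = 0.0519). This call ended under 13 of 20 alternatives, among them the omission of any 1 array except GFP-PGC-1α+DFO replicate 1 (adjusted p = 0.0692 to 0.194).

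Cblb, which encodes a ligase that marks IRS-1 in unloaded muscle, read 191 and 176 in GFP-PGC-1α+DFO, 257 and 269 in GFP+DFO, 167 and 179 in GFP-PGC-1α, and 195 and 214 in GFP cultures. GFP+DFO arrays again stood above the other 6. It was higher with DFO against GFP (log2 change 0.37 ± 0.10, adjusted p = 0.0485) and lower with PGC-1α under DFO (log2 change -0.52 ± 0.10, adjusted p = 0.0223). The rise had adjusted p-values above 0.05 under 14 of 20 alternatives, among them the omission of any 1 array, up to 0.293 for the mean of its probe sets, and the fall was -0.02 under poly-A spike-in scaling (adjusted p = 0.944). The fall ended under 6 of 20, with adjusted p-values of 0.0772 without GFP-PGC-1α+DFO replicate 2, 0.111 without GFP+DFO replicate 1 and 0.128 without GFP+DFO replicate 2. The next brightest probe set, 1455082_at, gave -0.85 ± 0.20 for that fall in the fit of every probe set (adjusted p = 0.0496) and 0.20 ± 0.20 for DFO against GFP (adjusted p = 0.571). In that fit the dim probe set 1458469_at differed from both, with 0.78 ± 0.19 for DFO in GFP-PGC-1α cultures (adjusted p = 0.04), where the brightest gave 0.09 ± 0.11.

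The FoxO factors moved the other way from Trim63 with DFO. Foxo3, which activates the Fbxo32 promoter in mouse muscle when it is not phosphorylated by Akt, read 802 and 685 in GFP-PGC-1α+DFO, 1041 and 1048 in GFP+DFO, 372 and 353 in GFP-PGC-1α, and 509 and 419 in GFP cultures. All 4 DFO arrays stood above the other 4, and within each DFO condition PGC-1α arrays were the lower. DFO raised it 2.26-fold with GFP (log2 change 1.18 ± 0.14, adjusted p = 0.00347) and 2.04-fold with GFP-PGC-1α (log2 change 1.03 ± 0.14, adjusted p = 0.00499), under each of 20 alternatives. The interaction was -0.15 ± 0.19 (95% interval -0.63 to 0.34, adjusted p = 0.746). PGC-1α gave -0.50 ± 0.14 with DFO (adjusted p = 0.062), or 0.0079 under poly-A spike-in scaling, and -0.35 ± 0.14 without it (adjusted p = 0.174). Probe set 1434832_at also rose with DFO, by 0.94 ± 0.13 with GFP (adjusted p = 0.00895) and 0.85 ± 0.13 with GFP-PGC-1α (adjusted p = 0.011), while the dim 1450236_at, at 10.7 to 38.4 intensity units, passed in none.

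Foxo1, a FoxO family member whose excess lowers muscle mass in mice, read 554 and 477 in GFP-PGC-1α+DFO, 534 and 501 in GFP+DFO, 349.9 and 361 in GFP-PGC-1α, and 386 and 371 in GFP cultures. The DFO arrays were all above the others, and those with and without PGC-1α overlapped under DFO. Its log2 change with DFO was 0.53 ± 0.11 in GFP-PGC-1α cultures (adjusted p = 0.0188) and 0.45 ± 0.11 in GFP cultures (adjusted p = 0.0329). The call in GFP-PGC-1α cultures ended under 4 of 20 alternatives, among them the omission of GFP-PGC-1α replicate 1 (adjusted p = 0.0961) or 2 (adjusted p = 0.072). The call in GFP cultures ended under 10 of 20, with adjusted p-values up to 0.269, among them the omission of any 1 GFP+DFO, GFP-PGC-1α or GFP array. The next brightest probe sets gave, in the fit of every probe set, 0.86 ± 0.14 (1416981_at, adjusted p = 0.0142) and 0.73 ± 0.12 (1416982_at, adjusted p = 0.0155) for DFO against GFP. The dim 1456529_at, at 1.84 to 25.45 intensity units, overlapped between GFP+DFO (8.56 and 11.58) and GFP cultures (3.32 and 14.01). For the brightest probe set PGC-1α gave -0.01 ± 0.11 with DFO (95% interval -0.28 to 0.26) and -0.09 ± 0.11 without it (95% interval -0.36 to 0.17). Under poly-A spike-in scaling it gave 0.49 with DFO and 0.12 without it. Foxo4, the remaining measured FoxO factor, passed in 1 contrast, DFO in GFP-PGC-1α cultures (log2 change 0.53 ± 0.13, adjusted p = 0.0411).

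**Figure D3:**
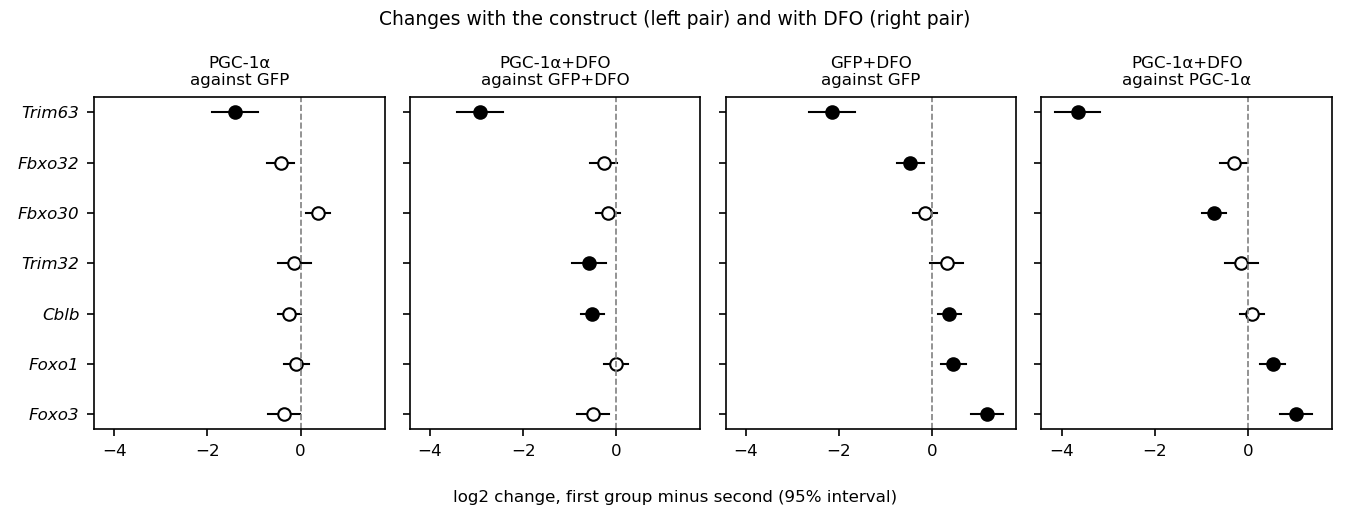
Log2 change of each member with PGC-1α (2 panels on the left) and with DFO (2 panels on the right), with 95% intervals from limma, filled where the adjusted p was under 0.05. With DFO, Trim63 lies left of 0 and Foxo1 and Foxo3 right of 0, and with PGC-1α the filled points all lie left of 0.

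Read as counts, DFO against GFP called 3 of 7 members higher and 2 lower, where limma called 11.8% of all genes higher and 12.5% lower. DFO in GFP-PGC-1α cultures called 2 higher and 2 lower, against 11.4% and 14.2% of all genes. PGC-1α under DFO called 0 higher and 3 lower, against 6.93% and 12%, and PGC-1α without DFO called 0 higher and 1 lower, against 4.96% and 4.77%. At an unadjusted p under 0.05, 0 members were higher with PGC-1α under DFO and 1 was without DFO. Both agents against GFP called 2 higher and 2 lower, against 13.5% and 18.3%. The interaction called 0 of 7, against 0.231% higher and 0.324% lower among all genes, with 2 members at an unadjusted p under 0.05. The counts in the gene lists below are to be read beside these shares of all genes, which are at the adjusted threshold. None was taken at the unadjusted one, here or for the gene lists below. The median log2 change of the members was 0.31 for DFO against GFP (all genes -0.02), -0.50 for PGC-1α under DFO (all genes -0.05), -0.14 for DFO in GFP-PGC-1α cultures (all genes 0.01) and -0.24 for PGC-1α without DFO (all genes -0.08). The comparisons share groups, so these counts are not separate pieces of evidence.

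Over the 8 arrays the members fell into pairs of like pattern, given as Pearson r of log2 intensity, a description in which arrays share 4 groups. Trim63 and Fbxo32 correlated with r = 0.913, Trim32 and Cblb with 0.909, and Foxo1 and Foxo3 with 0.941. Fbxo30 and Foxo1 ran opposite, at -0.858. Among genes above the median level whose group means spanned at least 1 log2 unit, the patterns most like Trim63 were those of Myh3 (0.999), the embryonic myosin heavy chain, Tmed10 (0.999), a cargo receptor of the secretory pathway, and Ttn (0.9985), the giant sarcomere protein titin. Foxo3 was nearest to Col5a1 (0.9986), a fibrillar collagen chain, then Rap1b (0.997) and H2aw (0.997). Foxo1 was nearest to Atp7a (0.994), a copper transporter, then Synpo (0.993) and Sap30l (0.991). Fbxo32 was nearest to Lrpap1 (0.987), Snhg6 (0.984) and Wdr44 (0.978), and Fbxo30 to Fkbp11 (0.972), Tmem41a (0.969) and Sftpb (0.958). Cblb was nearest to Usp12 (0.987), Cbx2 (0.984) and Phf3 (0.980), and Trim32 to Rasa3 (0.966), Cst6 (0.965) and Osgin1 (0.956).

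Other ubiquitin ligases linked to muscle wasting were called in both directions. Of 17 measured, DFO called 2 higher and 2 lower with GFP, near the 11.8% and 12.5% of all genes, and 3 higher and 5 lower with GFP-PGC-1α (7 and 2 under poly-A spike-in scaling). PGC-1α called 1 higher and 4 lower with DFO (4 and 1 under that scaling), and 2 higher and 1 lower without it. Trim54 (MuRF3), the close relative of Trim63, followed it with mean intensities of 139 in GFP-PGC-1α+DFO, 463 in GFP+DFO, 927 in GFP-PGC-1α and 1559 in GFP cultures. Its log2 change was -2.75 ± 0.16 with DFO in GFP-PGC-1α cultures (adjusted p = 0.000431), -1.75 ± 0.16 with DFO in GFP cultures (adjusted p = 0.00183) and -1.75 ± 0.16 with PGC-1α under DFO (adjusted p = 0.00308). Without DFO PGC-1α gave -0.75 ± 0.16 (adjusted p = 0.0501). Mul1, a ligase in the outer mitochondrial membrane, rose with PGC-1α, by 1.65 ± 0.13 under DFO (adjusted p = 0.00188) and 1.01 ± 0.13 without it (adjusted p = 0.0125). With PGC-1α and no DFO, the HECT ligase Nedd4l fell by 0.77 ± 0.10 (adjusted p = 0.0123) and its relative Wwp1 rose by 0.63 ± 0.09 (adjusted p = 0.0189). Mdm2, the ligase of p53, and Asb2 moved apart with DFO, by 0.82 ± 0.09 (adjusted p = 0.00302) and -1.19 ± 0.17 (adjusted p = 0.00632) in GFP-PGC-1α cultures.

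The proteasome, which degrades what these ligases mark, was lower with DFO. Of 32 measured subunits, 28 fell with DFO in GFP cultures and 0 rose by limma (0 also at an unadjusted p under 0.05), with a median log2 change of -0.68 against -0.02 for all genes. The largest falls were in ATPase subunits of the regulatory particle: Psmc3 at -1.66 ± 0.10 (adjusted p = 0.000546), Psmc5 at -1.26 ± 0.09 (adjusted p = 0.00096) and Psmc4 at -1.25 ± 0.17 (adjusted p = 0.00632). Under poly-A spike-in scaling 18 fell, and without either GFP+DFO replicate 17 did. In GFP-PGC-1α cultures 23 fell with DFO, led by Psmc3 at -1.59 ± 0.10, but 4 did under poly-A spike-in scaling and 8 without either GFP-PGC-1α replicate. PGC-1α without DFO lowered 8, with Psmd1 at -0.63 ± 0.09 (adjusted p = 0.0168), and 0 under that scaling or without any 1 replicate of the GFP-PGC-1α, GFP or GFP+DFO groups. With DFO it called 5 higher and 4 lower as deposited, and 10 higher and 0 lower under that scaling, so no direction is given there. Of 13 genes for conjugating enzymes, deubiquitinases and the complex that extracts marked proteins (Vcp, Ufd1 and Nploc4), DFO called 2 higher and 5 lower in GFP cultures, led by the deubiquitinase Usp2 at -1.87 ± 0.09 (adjusted p = 0.00034) and the conjugating enzyme Ube2d1 at -1.16 ± 0.10 (adjusted p = 0.00131). PGC-1α without DFO called 0 higher and 3 lower (0 and 0 under poly-A spike-in scaling), with Ube2d1 at -0.52 ± 0.10 (adjusted p = 0.0338). At an unadjusted p under 0.05, 1 of them was higher and 6 lower in that comparison. Over all genes limma called 11.8% higher and 12.5% lower with DFO in GFP cultures, and 4.96% and 4.77% with PGC-1α without DFO.

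Known targets of FoxO factors outside the members rose more often than they fell with DFO in GFP cultures. Of all genes, 11.8% were called higher and 12.5% lower there. Whether FoxO factors had a part in these changes was not tested. Of 25 measured, 12 were higher and 2 lower, with a median of 0.41, and 6 were higher without GFP+DFO replicate 1. The largest changes were those of Ccng2, a cyclin of cell-cycle arrest, at 2.76 ± 0.13 (adjusted p = 3e-04), Bnip3, a mitochondrial receptor of mitophagy, at 2.27 ± 0.09 (adjusted p = 0.00026), and Rictor, a subunit of mTORC2, at 1.25 ± 0.25 (adjusted p = 0.021). In GFP-PGC-1α cultures DFO called 7 higher and 7 lower (12 and 3 under poly-A spike-in scaling), with Ccng2 at 2.71 ± 0.13 and Bnip3 at 2.06 ± 0.09 among the first and the stress protein gene Sesn3 at -1.53 ± 0.19 (adjusted p = 0.00383) among the second. PGC-1α raised Pdk4, the kinase that shuts off pyruvate dehydrogenase, by 1.91 ± 0.10 with DFO (adjusted p = 0.000898) and by 2.28 ± 0.10 without it (adjusted p = 0.00168). It raised Sod2, the mitochondrial superoxide dismutase, by 2.52 ± 0.08 with DFO (adjusted p = 0.000302) and 1.64 ± 0.08 without it (adjusted p = 0.00168). These were the 2 of 25 that passed without DFO. Under DFO PGC-1α called 3 higher and 8 lower, or 3 and 4 under poly-A spike-in scaling, with Txnip, the thioredoxin-binding protein gene, at -1.43 ± 0.08 (adjusted p = 0.00115). Txnip also had the 1 interaction in this list that passed (-1.58 ± 0.12, adjusted p = 0.0283), a call that ended on omission of any 1 array except GFP-PGC-1α+DFO replicate 1 (adjusted p up to 0.178) and was 0.118 under poly-A spike-in scaling.

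Autophagy, the other main route of protein loss in muscle, had 0 of 20 genes past limma's threshold with PGC-1α alone. Of all genes, 4.96% were called higher and 4.77% lower there. The median of the 20 was -0.14, against -0.08 for all genes. At an unadjusted p under 0.05, 2 of the 20 were higher and 5 lower. With DFO in GFP cultures 5 were higher and 1 lower, among them the initiating kinase Ulk1 at 0.94 ± 0.16 (adjusted p = 0.0113), Map1lc3b, the source of LC3, at 0.72 ± 0.08 (adjusted p = 0.00313), and Atg13 at 0.63 ± 0.10 (adjusted p = 0.0111). Without either GFP+DFO replicate 1 was higher. In GFP-PGC-1α cultures DFO called 3 higher and 1 lower (9 and 0 under poly-A spike-in scaling), and PGC-1α under DFO called 1 higher and 3 lower (1 and 0 under that scaling).

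**Figure D4:**
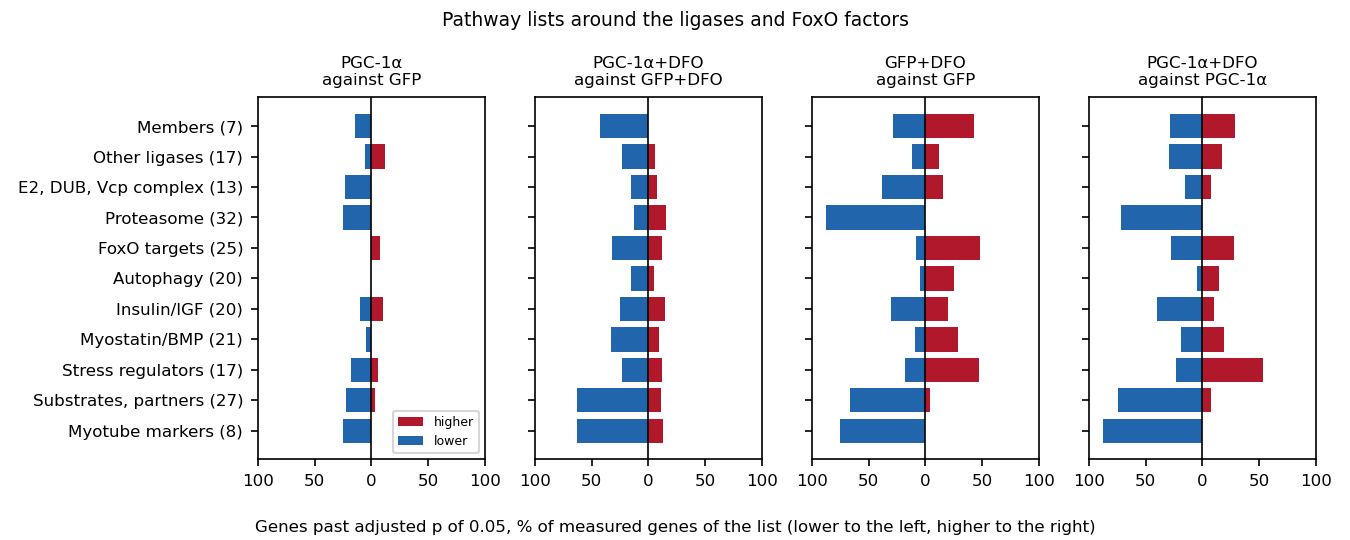
Share of the measured genes of each list, in percent, that limma called higher (right, red) or lower (left, blue), with the number measured in brackets, for PGC-1α (2 panels on the left) and DFO (2 panels on the right). The proteasome bar for GFP+DFO against GFP reaches 28 of 32 lower as deposited and 18 under poly-A spike-in scaling, which also ends most of the lower calls in the other proteasome bars.

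Genes of insulin and IGF signalling, which keeps FoxO factors out of the nucleus through Akt, went both ways. Igf1 had mean intensities of 97.7 in GFP-PGC-1α+DFO, 46.1 in GFP+DFO, 195 in GFP-PGC-1α and 226 in GFP cultures. It fell by 2.31 ± 0.15 with DFO in GFP cultures (adjusted p = 0.000652), and under DFO it was higher with PGC-1α by 1.10 ± 0.15 (adjusted p = 0.00896), an interaction of 1.31 ± 0.21 (adjusted p = 0.0768). Irs1, the adaptor that links the receptors to PI3-kinase, fell by 1.92 ± 0.09 with DFO in GFP-PGC-1α cultures (adjusted p = 0.00026), by 1.42 ± 0.09 with DFO in GFP cultures (adjusted p = 0.000697) and by 0.58 ± 0.09 with PGC-1α alone (adjusted p = 0.0241). Akt2 fell by 1.14 ± 0.09 with DFO in both GFP-PGC-1α (adjusted p = 0.000949) and GFP cultures (adjusted p = 0.0011). Of 20 measured genes, DFO called 2 higher and 8 lower with GFP-PGC-1α (5 and 3 under poly-A spike-in scaling), and 4 higher and 6 lower with GFP. PGC-1α called 3 higher and 5 lower with DFO (5 and 2 under that scaling), with Igfbp5 at -1.69 ± 0.11 (adjusted p = 0.00141) and Mtor at 1.16 ± 0.14 (adjusted p = 0.00658), and 2 higher and 2 lower without it. Over all genes DFO called 11.4% higher and 14.2% lower with GFP-PGC-1α, and 11.8% and 12.5% with GFP. For PGC-1α these shares were 6.93% and 12% with DFO, and 4.96% and 4.77% without it.

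In myostatin, activin and BMP signalling, which stands above Fbxo30, DFO called 6 of 21 genes higher and 2 lower in GFP cultures. Fst, the follistatin that binds myostatin and activin, was at -3.10 ± 0.47 (adjusted p = 0.00812), against Fstl3, its relative, at 2.68 ± 0.11 (adjusted p = 0.00026) and Smad7, the inhibitory Smad, at 2.46 ± 0.23 (adjusted p = 0.00187). In GFP-PGC-1α cultures DFO called 4 higher and 4 lower (5 and 1 under poly-A spike-in scaling), with Fst at -4.44 ± 0.47 (adjusted p = 0.00249). Of all genes, DFO called 11.8% higher and 12.5% lower in GFP cultures, and 11.4% and 14.2% in GFP-PGC-1α cultures. PGC-1α called 2 higher and 7 lower with DFO (3 and 2 under poly-A spike-in scaling), and 0 higher and 1 lower without it (2 and 7 at an unadjusted p under 0.05). Over all genes PGC-1α called 6.93% higher and 12% lower with DFO, and 4.96% and 4.77% without it. Among 17 glucocorticoid and stress regulators of atrophy genes DFO called 8 higher and 3 lower in GFP cultures, led by Ddit4, an inhibitor of mTORC1, at 2.24 ± 0.09 (adjusted p = 0.000263), Socs3 at 2.06 ± 0.09 (adjusted p = 0.000281) and Cebpd at 2.01 ± 0.14 (adjusted p = 0.00076), and 4 were higher without GFP+DFO replicate 2. In GFP-PGC-1α cultures it called 9 higher and 4 lower (10 and 2 under poly-A spike-in scaling). PGC-1α without DFO called 1 higher and 3 lower (0 and 0 under that scaling), the lower ones being the glucocorticoid-responsive Per1 at -0.91 ± 0.11 (adjusted p = 0.0128) and Tsc22d3 at -0.76 ± 0.13 (adjusted p = 0.0254), and Socs3 at -0.58 ± 0.09 (adjusted p = 0.0208). With DFO it called 2 higher and 4 lower (7 and 1 under poly-A spike-in scaling), with Tsc22d3 at -1.58 ± 0.13 (adjusted p = 0.00206) and Tnfrsf12a, the TWEAK receptor, at 1.17 ± 0.08 (adjusted p = 0.00164).

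The transcripts of proteins that these ligases bind or mark were themselves mostly lower with DFO. Of 27 measured, DFO called 2 higher and 20 lower in GFP-PGC-1α cultures, and 1 higher and 18 lower in GFP cultures. Myl2, a myosin light chain marked by MuRF1, was at -5.43 ± 0.10 with DFO in GFP cultures (adjusted p = 0.00011), Mybpc1, a myosin-binding protein, at -3.48 ± 0.10 (adjusted p = 0.000139), and Ckm, the muscle creatine kinase, at -3.28 ± 0.09 (adjusted p = 0.000139). Myod1, the myogenic factor marked by atrogin-1, was at -4.43 ± 0.15 with DFO in GFP-PGC-1α cultures (adjusted p = 0.00011) and -2.98 ± 0.15 in GFP cultures (adjusted p = 0.000376). PGC-1α called 3 higher and 17 lower with DFO (4 and 7 under poly-A spike-in scaling), and 1 higher and 6 lower without it (1 and 1 under that scaling), where the cardiac troponin I gene Tnni3 was the higher one, at 3.38 ± 0.32 (adjusted p = 0.00601). Of the interactions, Myl2 passed at 1.61 ± 0.15 (adjusted p = 0.0366), and Tpm1, a tropomyosin, stood at -1.01 ± 0.12 (adjusted p = 0.05), under the threshold before rounding. The call of Myl2 ended on omission of any 1 array except GFP-PGC-1α+DFO replicate 1 (adjusted p up to 0.209), and that of Tpm1 on omission of any 1 array (adjusted p = 0.0689 to 0.253).

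Of 8 myotube markers, 7 fell with DFO in GFP-PGC-1α cultures and 6 in GFP cultures, while with PGC-1α 5 fell and 1 rose under DFO (3 and 2 under poly-A spike-in scaling) and 2 fell without DFO. The summed intensity of 6 myoblast and reserve cell markers was 1425 to 1692 in GFP-PGC-1α+DFO, 1160 to 1178 in GFP+DFO, 1973 to 2006 in GFP-PGC-1α and 1485 to 1609 in GFP arrays. Its members went opposite ways with DFO in GFP cultures, where Cd34 (1.43) and Id1 (0.50) were called higher and Id3 (-1.92) and Myf5 (-1.83) lower on the log2 scale. The 4 macrophage markers summed to 1946 to 2593 in GFP-PGC-1α+DFO, 2018 to 2121 in GFP+DFO, 1954 to 2041 in GFP-PGC-1α and 1732 to 1865 in GFP arrays, with Cd68, also a lysosomal protein of other cells, higher with DFO in GFP cultures (log2 change 1.34 ± 0.16, adjusted p = 0.0038). Adipocyte markers, 3 of 4 measured, summed to 167 to 188 in GFP-PGC-1α+DFO, 133 to 134 in GFP+DFO, 85.7 to 115 in GFP-PGC-1α and 66.2 to 87.3 in GFP arrays. Osteoblast markers, 3 of 4 measured, summed to 172 to 224 in GFP-PGC-1α+DFO, 215 to 233 in GFP+DFO, 207 to 251 in GFP-PGC-1α and 289 to 317 in GFP arrays. The part of these differences in the member results was not tested. Vegfa, a known target of hypoxia-inducible factors, rose with DFO by 0.75 ± 0.09 in GFP-PGC-1α cultures (adjusted p = 0.00364) and 1.27 ± 0.09 in GFP cultures (adjusted p = 0.000816). It also rose with PGC-1α without DFO, by 0.73 ± 0.09 (adjusted p = 0.012), while under DFO PGC-1α gave 0.22 ± 0.09 (adjusted p = 0.169).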

How the data were processed

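The data were 8 Affymetrix Mouse 430 2.0 arrays of RNA from C2C12 myotubes, 2 for each of 4 groups taken from the sample labels. The deposited values are 1 linear intensity per probe set and array, made by the authors; the summarisation and scaling behind them are not given in the sources used here. Intensities were taken to log2 with no pseudocount and no filter. Of 34945 probe sets annotated to 1 symbol, the one with the highest mean log2 stood for each of 18193 genes. limma 3.58.1 (R 4.3.3) fitted 1 mean per group on all 8 arrays with eBayes moderation (4 residual and 1.3 prior degrees of freedom), and p-values were adjusted by Benjamini and Hochberg's method over all genes. The script was tested on simulated data. Folds are 2 raised to the difference of mean log2 levels. The number of arrays limits the precision.

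The members and gene lists were chosen with earlier results of these data known. Named genes were the members, up to 3 genes of each list with the largest change past the threshold in a contrast, a few fixed genes (Foxo4, Igf1, Myog, Ckm, Ppargc1a, Vegfa), and the 3 most alike to each member. The expression of Foxo6, Mstn and Fbxo40 was not analysed here. Promoters and motifs were read from RefSeq sequence (GRCm38.p6) with Python 3.11.15, and figures drawn with matplotlib 3.10.9. Alternatives covered scaling, probe-set choice, dim genes, a pseudocount of 16, the variance model, the arrays in the fit and the replicate number as a block.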

Additional observations from a re-analysis of the deposited data

How the results depend on the processing

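Of 340 alternative values of the 17 called member results, 260 stayed past the threshold. All kept their direction, but many settings left the log2 value unchanged. The number of members called for GFP-PGC-1α against GFP, 1 as reported, was 4 among genes above the median level and with trend and robust options, 0 with only the groups compared, and 0 to 1 with 1 array left out. For GFP+DFO against GFP, 5 as reported, it was 2 under poly-A spike-in scaling and for the mean of probe sets. It was also 2 for every probe set on its own and with only the groups compared. The calls of Fbxo32, Cblb and Foxo1 in this comparison also ended on omission of any 1 GFP+DFO, GFP-PGC-1α or GFP array. For GFP-PGC-1α+DFO against GFP+DFO, 3 as reported, it was 1 under spike-in scaling, for the mean of probe sets and with only the groups compared, and 1 to 3 with 1 array left out. For GFP-PGC-1α+DFO against GFP-PGC-1α, 4 as reported, it was 2 with only the groups compared. For the interaction, 0 as reported, it was 2 above the median level, where 1316 of 9096 genes were called. It was 1 with a floor at the 25th percentile (450 of 18193 genes) and 2 with trend and robust options (1467 of 18193). For GFP-PGC-1α+DFO against GFP, 4 as reported, it was 1 with only the groups compared and 2 to 4 with 1 array left out. The fits with only the groups compared used fewer arrays; elsewhere the cause was not tested. Log2 values that turned, none of them called, were, under spike-in scaling, Trim32 0.0792 and Foxo1 0.12 for GFP-PGC-1α against GFP; Fbxo32 0.23, Fbxo30 0.33, Foxo1 0.49 and Foxo3 0.0079 for GFP-PGC-1α+DFO against GFP+DFO; Fbxo32 0.0455 and Trim32 0.21 for GFP-PGC-1α+DFO against GFP-PGC-1α; Cblb 0.0084 and Foxo3 0.15 for the interaction; and Fbxo30 0.23, Trim32 0.29 and Cblb 0.41 for GFP-PGC-1α+DFO against GFP. For the mean of probe sets they were Foxo3 0.13 for GFP-PGC-1α against GFP, Fbxo30 0.0455 for GFP+DFO against GFP, and the interactions of Fbxo32 (-0.32), Cblb (0.0549) and Foxo1 (-0.0128). The Foxo1 interaction was -0.0177 without _x_at and _s_at probe sets, and with 1 array left out it ran between -0.0266 (without GFP-PGC-1α+DFO replicate 1) and 0.1907. Foxo1 for GFP-PGC-1α+DFO against GFP+DFO was 0.11 after quantile normalization, 0.0075 after median centring, and with 1 array left out between -0.1184 and 0.0989, above 0 without GFP-PGC-1α+DFO replicate 2 or GFP+DFO replicate 1. Trim32 for GFP-PGC-1α+DFO against GFP-PGC-1α ran between -0.289 and 0.0043 with 1 array left out, turning without GFP-PGC-1α+DFO replicate 2. Same-numbered arrays did not deviate together (correlations of -0.0247 to 0.0322), and with the replicate number as a block the calls over all genes were 1060, 3840, 2685, 4037, 3 and 5266, against 1770, 4409, 3446, 4662, 101 and 5786 as reported, for the 6 comparisons in the order above. The block ended the calls of Cblb for GFP+DFO against GFP (adjusted p = 0.0786) and Trim32 for GFP-PGC-1α+DFO against GFP+DFO (adjusted p = 0.0831). Under spike-in scaling the share of calls that were higher was 85.6% for GFP-PGC-1α against GFP (51% as reported), 89.3% for GFP-PGC-1α+DFO against GFP+DFO (36.6%), 76% for GFP-PGC-1α+DFO against GFP-PGC-1α (44.6%) and 83.9% for GFP-PGC-1α+DFO against GFP (42.4%).
Over all genes, calls for GFP-PGC-1α against GFP were 880 under spike-in scaling and 940 for the mean of probe sets. They were 3524 of the 9096 genes above the median level, 3746 with trend and robust options and 0 with only the groups compared. GFP+DFO against GFP gave 2920 under spike-in scaling. With only the groups compared, GFP-PGC-1α+DFO gave 861 against GFP+DFO, 1942 against GFP-PGC-1α and 3046 against GFP, and for the mean of probe sets 2213 against GFP+DFO. The interaction gave 216 after quantile normalization, 4 under spike-in scaling, 4 for the mean of probe sets, 58 without _x_at and _s_at probe sets and 24 for every probe set. It gave 325 with the pseudocount, besides the counts given above. With 1 array left out the lowest counts were 304 for GFP-PGC-1α against GFP (without GFP-PGC-1α replicate 1), 2069 for GFP+DFO against GFP (without GFP+DFO replicate 2), 873 for GFP-PGC-1α+DFO against GFP+DFO (without GFP+DFO replicate 1), 2637 for GFP-PGC-1α+DFO against GFP-PGC-1α (without GFP-PGC-1α replicate 1) and 0 for the interaction (without GFP+DFO replicate 1).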
